A study of Mus musculus with 4 samples.

Results

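The interferon response and antigen presentation genes described here are 44 listed mouse genes, of which the 26 with a mean of at least 1 FPKM over the 4 libraries form the set that was tested. FPKM counts a gene's fragments relative to the length of its transcript and to all mapped fragments of the library, so levels can be compared between genes. All 44 were found in a table of 23970 gene symbols, of which 11350 reached the same mean. The genes were measured by RNA sequencing in primary epidermal keratinocytes of newborn mice, at passage 0, grown in low-calcium medium on growth-arrested J2-3T3 cells, a mouse fibroblast line used as a feeder layer and removed before RNA extraction. The groups were control, with 2 libraries, and Ovol2-deficient, also with 2, and neither was treated further. Ovol2 is a zinc-finger transcription factor of epithelia. The labels code the deficient libraries SSKO. The strain, the altered part of the gene, any Cre driver and the number of mice behind a library are not stated in the labels, so p-values measure the spread between these libraries, which may be technical. Values are given in the order library 1, library 2 of each group. The choice of the 26 used the mean over both groups. The lowest just inside were Gbp2 and Parp14, both at a mean of 1.05, and the highest just outside were Ifih1 and Cxcl10, at 0.968 and 0.912.

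Interferons of types I and III are secreted when a cell senses foreign nucleic acid. Types I and III act through receptors and the kinases Jak1 and Tyk2 on a complex that holds Stat2 and Irf9 and binds a DNA element called the interferon-stimulated response element (ISRE). Interferon gamma acts through another element, GAS, and through Irf1. The genes so induced include antiviral effectors and much of the MHC class I pathway, in which the proteasome cuts proteins into peptides, Tap1 and Tap2 pump them into the endoplasmic reticulum, Tapbp helps load them, and a heavy chain such as H2-K1 or H2-D1 carries them to the surface with B2m. Many of these genes are also transcribed at a low level without added interferon, and keratinocytes are known to respond to interferon.

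Promoter sequences are shown first because an ISRE is what many of these genes share. The ISRE was searched as GAAA, any 2 bases and GAAA again, on both strands, in the 250 bases before each RefSeq start (build GRCm38.p6), overlapping matches included. Of the 44 genes 34 had a promoter entry, and 13 of these held at least 1 match, against 3.46% of 27025 genes with an entry. GAS, searched as TTC, any 3 bases and GAA, was found in 5 of the 34, against 8.13% of genes. Shown here are the matches of genes that the results turn on, leaving out Gbp2, whose stretch overlaps an annotated exon. Ifitm2, whose values overlapped between groups, also had 1 match and is outside the rule for genes given in full. Each is written 5′ to 3′ on the strand of its gene, with the matched letters in capitals, and a match on the other strand reads TTTC, 2 bases, TTTC.
B2m (chr2:122147534-122147571, plus strand): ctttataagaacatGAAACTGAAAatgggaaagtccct
Bst2 (chr8:71537573-71537616, minus strand): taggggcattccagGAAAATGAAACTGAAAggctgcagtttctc
Isg15 (chr4:156200861-156200910, minus strand): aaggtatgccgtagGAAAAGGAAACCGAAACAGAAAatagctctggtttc
Ifit1 (chr19:34640771-34640827, plus strand): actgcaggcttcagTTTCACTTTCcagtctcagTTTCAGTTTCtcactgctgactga
Oas1a (chr5:120907526-120907559, minus strand): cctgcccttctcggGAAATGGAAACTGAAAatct
Stat2 (chr10:128270262-128270299, plus strand): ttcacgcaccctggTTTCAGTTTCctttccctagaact
Isg15 had 3 overlapping matches, Bst2 and Oas1a 2 overlapping matches each, and Ifit1 2 separate ones. The first match began 139 bases before the start of B2m, 130 before that of Bst2, 78 for Isg15, 104 for Ifit1, 20 for Oas1a and 222 for Stat2. A match is a description of letters in this window, and no match says nothing of a factor.

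Ovol2 stood at 2.68 and 2.14 FPKM in the controls, against 1.45 and 0.941 in the deficient libraries, with a log2 fold change of -0.64 ± 0.18 SE, adjusted p = 0.129 in limma, and since the altered part of the gene is not given, this level does not fully check the labels. Its exons overlap those of a gene on the other strand, and the library kit as described does not mark strand. Keratinocyte markers dominated all libraries, with a summed level of 5089 to 5870 FPKM over 10 genes in the deficient libraries and 6274 to 6527 in the controls. None of the 10 passed limma's adjusted test. At an unadjusted p under 0.05, 4 were lower (7.94% of all genes tested). The authors' deposited table called 3 of the 10 as lower, against 4.43% of its genes called in either direction. For 6 of the 10 both deficient values lay below both controls (24% of all genes tested did so), with a median log2 fold change of -0.24. The 20 fibroblast or feeder markers summed to 400.4 to 405.4 FPKM in the controls and 529.0 to 578.4 in the deficient libraries. Of these, 17 were tested and 2 rose in limma, against 0.837% of all genes tested. The authors' deposited table called 10 of the 18 with an adjusted p as higher, against 2.33% of its genes. All 17 had both deficient values above both controls (24.1% of all genes tested did so), with a median log2 fold change of 0.50. The 9 melanocyte markers summed to 62.9 to 68.7 in the controls and 85.4 to 92.0 in the deficient libraries. Of these, 0 of 6 tested passed limma's adjusted test. At an unadjusted p under 0.05, 4 were higher (9.49% of all genes tested). The authors' deposited table called 1 melanocyte marker as higher, against 2.33% of its genes. All 6 also had both deficient values above both controls, with a median log2 fold change of 0.37. Of the immune markers, the Langerhans cell gene Cd207 and the T cell gene Cd3g were listed at 0 in all 4 libraries. The leukocyte gene Ptprc stood at 0.0155 to 0.0659. Lyz2 (5.59 to 12.3), Cd68 (10.3 to 12.3), Tyrobp (0.507 to 2.76) and Fcer1g (0.973 to 1.37) were present. The 5 endothelial markers summed to 3.57 and 3.88 FPKM in the controls, against 4.70 and 3.51 in the deficient libraries. The 5 muscle markers summed to 1.24 and 1.31 FPKM in the controls, against 2.26 and 2.05 in the deficient libraries. The part that these markers had in the other results was not tested. In bulk RNA, fewer cells of a type and less RNA per cell cannot be told apart.

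Most of the listed genes lay somewhat higher in the Ovol2-deficient libraries, with fold changes of FPKM + 1 from -0.14 for Irf1 to 0.83 for Isg15 on the log2 scale, and none passed limma, a linear model with variances moderated across genes. Of the 26, 0 were called at an adjusted p under 0.05, against 1.35% of the 11350 genes tested (0.837% higher). At an unadjusted p under 0.05 there were 10 higher and 0 lower in limma, against 9.49% and 7.94% of genes. Both deficient values lay above both controls for 16 of the 26 and below them for 0, while 24.1% and 24% of all genes tested did so. The log2 fold change was above 0 for 23 of the 26, against 49.6% of all genes tested. Its median was 0.24, beside -0.0014 for all genes tested. The median was 0.50 for the 17 fibroblast or feeder markers and 0.37 for the 6 tested melanocyte markers. For 3 of the 26 (Usp18, Gbp2 and Parp14) the control mean was under 1 and the deficient mean over 1, so they passed the level filter through the deficient group. Without the filter, 27 of the 44 had both deficient values above both controls and 0 below, against 23.4% and 19.1% of 17605 genes with a mean above 0, 40 of the 44 had a log2 fold change above 0 (53.5% of those genes), and the median was 0.22 beside 0.01. The authors' deposited table gave an adjusted p for 30 of the 44 and called 1 of them, B2m, as higher, against 4.43% of its genes called and 2.33% called higher. The count of called genes was 2 without control 2 (Isg15 and Ifi27), in a fit that called 145 of all genes, and 0 without any other library, where 397 (control 1), 10 (deficient library 1) and 25 (deficient library 2) of all genes were called.

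**Figure D1:**
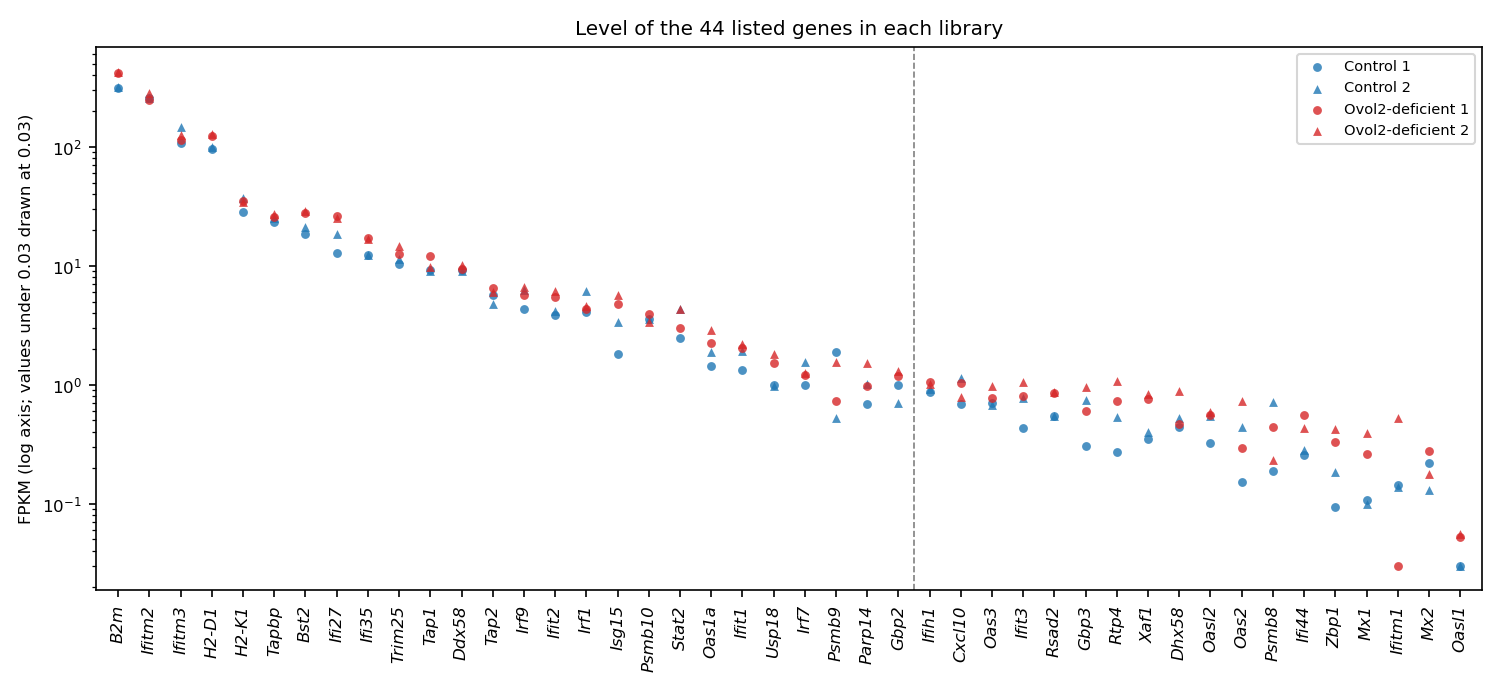
FPKM of each of the 44 listed genes in the 4 libraries, on a log axis and ordered by mean, with controls in blue, Ovol2-deficient libraries in red, circles for library 1 and triangles for library 2. The dashed line separates the 26 genes with a mean of at least 1 from the 18 below it, and levels run from 428.1 FPKM for B2m in deficient library 2 to listed at 0 for Oasl1 in both controls (drawn at the bottom of the axis).

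The surface MHC class I molecules were the most abundant of the antigen presentation genes, and B2m and the heavy chain H2-D1 lay higher in the deficient libraries. B2m, the light chain shared by all classical class I molecules (ENSMUSG00000060802.8, chromosome 2, 122147686 to 122153083, plus strand), stood at 311.9 and 319.6 FPKM in the controls, against 414.7 and 428.1 in the deficient libraries. The libraries of each group lay close together and far from the other group. The means were 315.8 ± 5.41 and 421.4 ± 9.48 FPKM (SD, n = 2 per group), a ratio of 1.33. limma gave a log2 fold change of 0.42 ± 0.09 SE, adjusted p = 0.0813, while the authors' deposited table gave B2m a log2 fold change of 0.35 with an adjusted p of 0.0238, on a mean normalized signal of 3161. Leaving out any 1 library left the log2 fold change of B2m between 0.39 and 0.44.

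The heavy chain H2-D1 (ENSMUSG00000073411.11, chromosome 17, 35262730 to 35267499, plus strand) stood at 96.7 and 100.6 FPKM in the controls, against 124.1 and 128.0 in the deficient libraries. The groups did not overlap, with a log2 fold change of 0.35 ± 0.09 SE, adjusted p = 0.103 in limma and, in the authors' deposited table, a log2 fold change of 0.19 (adjusted p = 0.642). The other classical heavy chain, H2-K1 (ENSMUSG00000061232.16, chromosome 17, 33996017 to 34000347, minus strand), stood at 28.6 and 36.8 FPKM in the controls, against 35.3 and 34.1 in the deficient libraries. Its groups overlapped, since control 2 was the highest of the 4 and control 1 the lowest (log2 fold change 0.09 ± 0.13 SE, adjusted p = 0.779), and without control 1 its log2 fold change was -0.08. Class I heavy chains are close copies, and the sources used here do not say how shared reads were assigned, so the split between them is uncertain. H2-L, a further heavy chain gene, was listed at 12.5 and 9.96 FPKM in the controls, against 15.3 and 13.01 in the deficient libraries, but had a mean normalized signal of 0 in the authors' deposited table.

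The peptide pump and its helper lay 1.10 to 1.20 times higher in mean FPKM. All 3 had both deficient values above both controls, as did 24.1% of all genes tested. Tap1, a subunit of the pump (ENSMUSG00000037321.17, chromosome 17, 34187553 to 34197225, plus strand), stood at 9.27 and 9.01 FPKM in the controls, against 11.99 and 9.71 in the deficient libraries (log2 fold change 0.22 ± 0.12 SE, adjusted p = 0.427). Deficient library 1 was the highest and deficient library 2 lay less than 1 FPKM above control 1. Tap2, the other subunit, stood at 5.71 and 4.79 FPKM in the controls, against 6.56 and 6.06 in the deficient libraries (log2 fold change 0.23 ± 0.12 SE, adjusted p = 0.413). Tapbp, which holds the pump next to the empty heavy chain, stood at 23.1 and 24.98 FPKM in the controls, against 25.8 and 27.3 in the deficient libraries (log2 fold change 0.14 ± 0.09 SE, adjusted p = 0.521). The deficient libraries were above the controls for each, and for Tap2 and Tapbp the gap between the groups was smaller than the distance between the libraries within each. Exons of Tap2 and Tapbp overlap those of neighbouring genes, for Tapbp also on the same strand, and reads from such partners cannot be told apart.

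The immunoproteasome subunits, which replace constitutive catalytic subunits after interferon, did not lie apart. Psmb10 stood at 3.56 and 3.56 FPKM in the controls, against 3.94 and 3.33 in the deficient libraries, with deficient library 2 the lowest of the 4. Psmb9 stood at 1.87 and 0.521 FPKM in the controls, against 0.725 and 1.54 in the deficient libraries, a wide and overlapping spread on a mean normalized signal of only 16.2 in the authors' deposited table. Psmb8 was below the level filter at 0.189 and 0.708 FPKM in the controls, against 0.437 and 0.233 in the deficient libraries. The RefSeq starts of Psmb9 and Tap1 lie 226 bases apart on opposite strands and their annotated exons overlap, so reads of the pair cannot be fully told apart. Neither the Tap1 nor the Psmb9 window held an ISRE or GAS match as searched.

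**Figure D2:**
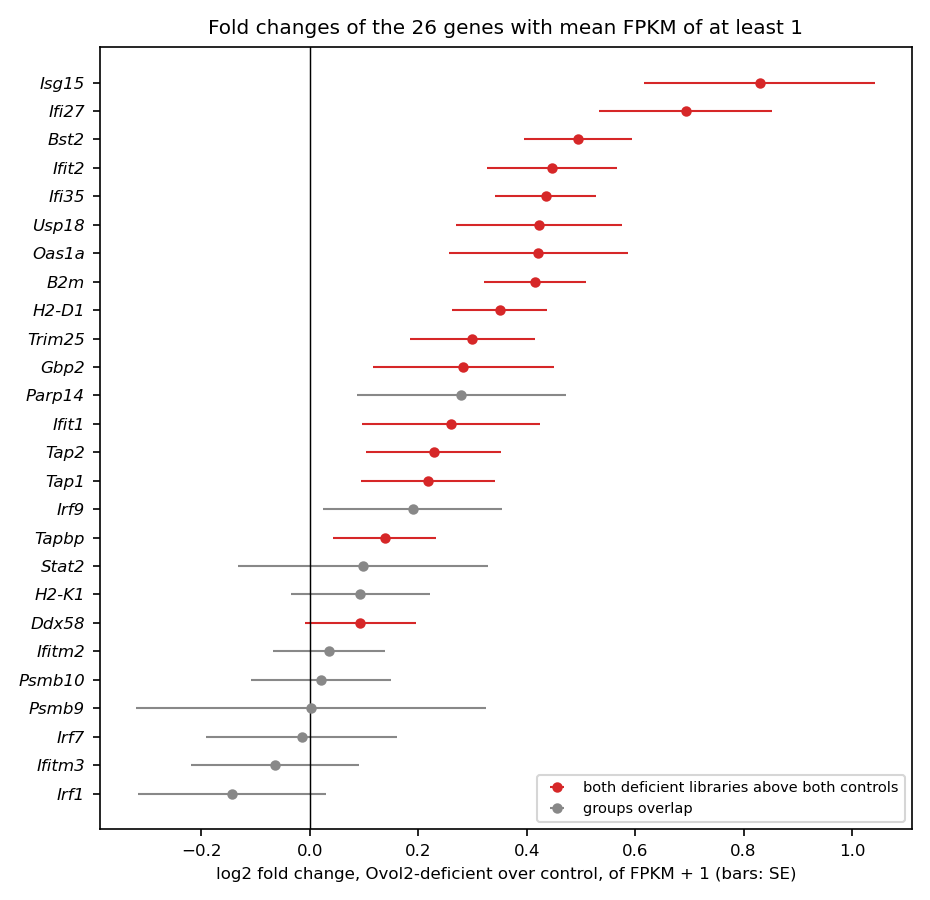
Log2 fold change of FPKM + 1, Ovol2-deficient over control, for the 26 genes with a mean of at least 1 FPKM, with bars for the SE from limma (n = 2 libraries per group). Red marks the 16 genes whose deficient values both lie above both controls and grey the 10 that overlap; fold changes run from -0.14 for Irf1 to 0.83 for Isg15, and none passed the adjusted test.

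The transcription factors that carry the interferon signal did not separate by genotype. Stat2, which works with Irf9 in the ISRE-binding complex, stood at 2.48 and 4.32 FPKM in the controls, against 2.98 and 4.33 in the deficient libraries (log2 fold change 0.10 ± 0.23 SE, adjusted p = 0.880). The second library of each group was the higher, and the first of each the lower. Irf9, the DNA-binding part of that complex, stood at 4.37 and 6.25 FPKM in the controls, against 5.68 and 6.58 in the deficient libraries (log2 fold change 0.19 ± 0.17 SE, adjusted p = 0.631). The same order held here. Irf7, which amplifies interferon production, stood at 0.993 and 1.54 FPKM in the controls, against 1.20 and 1.25 in the deficient libraries (log2 fold change -0.02 ± 0.18 SE, adjusted p = 0.978). Irf1, a factor induced by interferon gamma, stood at 4.06 and 6.11 FPKM in the controls, against 4.30 and 4.57 in the deficient libraries (log2 fold change -0.14 ± 0.17 SE, adjusted p = 0.741), with control 2 above the other libraries, which spanned 4.06 to 4.57. Leaving out 1 library turned the direction of Stat2, Irf9, Irf7 and Irf1, as with Stat2 at -0.21 without control 1 and 0.40 without control 2. Exons of Irf7, Irf9 and Irf1 overlap those of neighbouring genes, and reads from such partners cannot be told apart.

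The same order of libraries was seen across much of the list. Library 2 was above library 1 in both groups for 16 of the 26 genes, against 20.2% of all genes tested, and for all 4 signal transcription factors. Control 2 was above control 1 for 18 of 26 (46.6% of all genes), and deficient library 2 above deficient library 1 for 20 of 26 (37.9% of all genes). Relative to the control mean, the median of the 26 genes was -0.06 and 0.06 in the controls, against 0.21 and 0.30 in the deficient libraries, on the log2(FPKM + 1) scale. Whether a shared litter, day or batch links libraries with the same number is not stated in the labels.

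**Figure D3:**
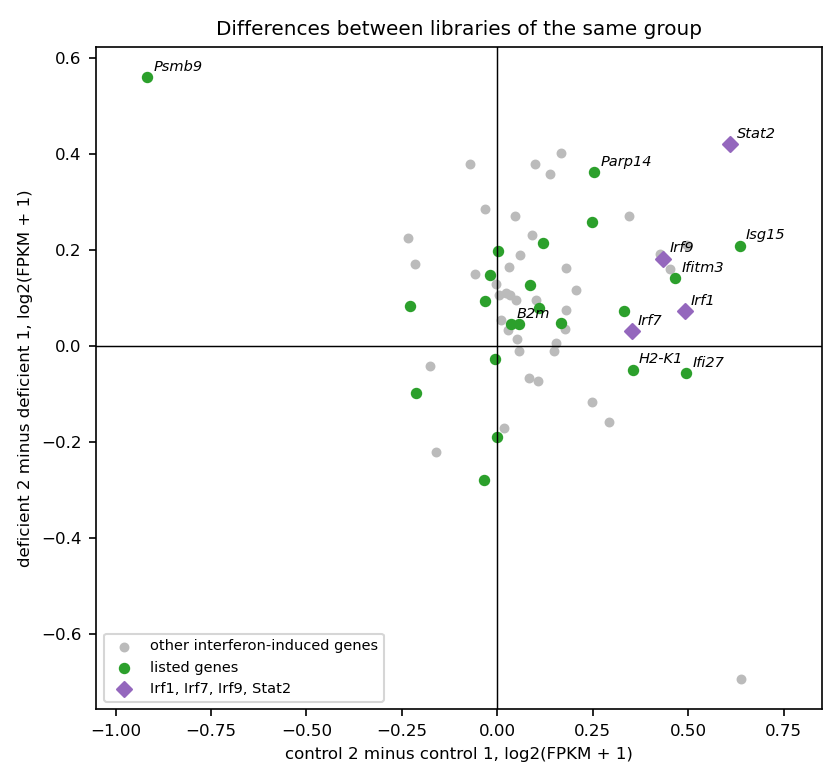
Difference between library 2 and library 1 on the log2(FPKM + 1) scale, in the controls (horizontal axis) and in the Ovol2-deficient group (vertical axis), for the 26 listed genes (green and purple) and 40 other interferon-induced genes (grey). Of the 26 listed genes 16, among them Irf1, Irf7, Irf9 and Stat2 in purple, fall in the upper right part, where library 2 is the higher in both groups.

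Among the antiviral effectors, Isg15 had the largest fold change of the 26. Isg15, a ubiquitin-like protein that is joined to other proteins (ENSMUSG00000035692.6, chromosome 4, 156199424 to 156200818, minus strand), stood at 1.81 and 3.35 FPKM in the controls, against 4.78 and 5.68 in the deficient libraries. The groups did not overlap, but the distance between the controls was larger than the gap from control 2 to deficient library 1. The means were 2.58 ± 1.10 and 5.23 ± 0.638 FPKM (SD, n = 2 per group) (log2 fold change 0.83 ± 0.21 SE, adjusted p = 0.108). It passed without control 2 (log2 fold change 1.15, adjusted p = 0.0292 in limma), and was at 0.51 without control 1. In the authors' deposited table its log2 fold change was 0.33 (adjusted p = 0.485) on a mean normalized signal of 37.02. Usp18, the protease that removes Isg15 and dampens receptor signalling, stood at 1.002 and 0.976 FPKM in the controls, against 1.53 and 1.81 in the deficient libraries (log2 fold change 0.42 ± 0.15 SE, adjusted p = 0.218). Both deficient values were the higher for both genes of this pair, and exons of Usp18 overlap a gene on the other strand.

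Bst2, or tetherin, which holds budding virus particles at the cell surface (ENSMUSG00000046718.8, chromosome 8, 71534255 to 71537456, minus strand), stood at 18.6 and 21.00 FPKM in the controls, against 27.8 and 28.7 in the deficient libraries. The deficient libraries lay close together and well above both controls (log2 fold change 0.49 ± 0.10 SE, adjusted p = 0.0628). With only genes of at least 5 FPKM tested (267 called of all genes), Bst2 passed limma (adjusted p = 0.0432), as did Ifi35 (adjusted p = 0.0473). The authors' deposited table did not call Bst2 (log2 fold change 0.38, adjusted p = 0.240). The other membrane factors above the level filter overlapped between groups. Ifitm3, which blocks virus entry from endosomes (ENSMUSG00000025492.6, chromosome 7, 141009586 to 141010770, minus strand), stood at 106.8 and 147.9 FPKM in the controls, against 114.4 and 126.3 in the deficient libraries, with control 2 the highest and control 1 the lowest (log2 fold change -0.06 ± 0.15 SE, adjusted p = 0.884; 0.17 without control 2 and 0.0071 without deficient library 1). Ifitm2, its close relative and the second most abundant of the 44 genes, stood at 257.7 and 257.8 FPKM in the controls, against 246.6 and 282.9 in the deficient libraries, with both controls inside the range of the deficient libraries.

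Ifi35, a leucine-zipper protein induced by interferon (ENSMUSG00000010358.13, chromosome 11, 101448407 to 101458698, plus strand), stood at 12.4 and 12.3 FPKM in the controls, against 17.2 and 16.9 in the deficient libraries (log2 fold change 0.43 ± 0.09 SE, adjusted p = 0.0707). Both groups were tight, and far apart from each other. Ifi27 (ENSMUSG00000064215.13, chromosome 12, 103434211 to 103440239, plus strand), a small mitochondrial and nuclear membrane protein, stood at 12.9 and 18.6 FPKM in the controls, against 26.2 and 25.2 in the deficient libraries (log2 fold change 0.69 ± 0.16 SE, adjusted p = 0.0836). Control 1 was the lowest by a wide margin, and Ifi27 passed without control 2 (log2 fold change 0.94, adjusted p = 0.0197 in limma) and stood at 0.45 without control 1. In the authors' deposited table the log2 fold changes of Ifi35 and Ifi27 were 0.38 and 0.47 (adjusted p = 0.207 and 0.148). Exons of Ifi35 overlap a gene on the other strand.

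Of the IFIT and OAS genes, which act on RNA, 3 of 8 were above the level filter, and these lay higher in the deficient libraries without passing the test. Ifit2, which binds RNA and restrains translation, stood at 3.84 and 4.14 FPKM in the controls, against 5.50 and 6.10 in the deficient libraries (log2 fold change 0.45 ± 0.12 SE, adjusted p = 0.118). Ifit1, which recognises RNA that lacks a normal cap, stood at 1.32 and 1.92 FPKM in the controls, against 2.05 and 2.20 in the deficient libraries (log2 fold change 0.26 ± 0.16 SE, adjusted p = 0.482), and control 2 lay just under deficient library 1. Oas1a, which makes the oligoadenylate that activates RNase L, stood at 1.44 and 1.90 FPKM in the controls, against 2.25 and 2.89 in the deficient libraries (log2 fold change 0.42 ± 0.17 SE, adjusted p = 0.251). Within each group library 2 was the higher for all 3 of these genes. Gbp2, a guanylate-binding GTPase, stood at 0.998 and 0.705 FPKM in the controls, against 1.18 and 1.31 in the deficient libraries (log2 fold change 0.28 ± 0.17 SE, adjusted p = 0.449), near the level filter. Parp14, a mono-ADP-ribosyltransferase, overlapped at 0.685 and 1.01 FPKM in the controls, against 0.970 and 1.53 in the deficient libraries.

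The RNA sensor Ddx58, known as RIG-I, had a mean ratio of 1.07, at 9.22 and 8.99 FPKM in the controls, against 9.44 and 10.1 in the deficient libraries (log2 fold change 0.09 ± 0.10 SE, adjusted p = 0.710). Trim25, a ubiquitin ligase that activates RIG-I, stood at 10.4 and 11.4 FPKM in the controls, against 12.6 and 14.8 in the deficient libraries (log2 fold change 0.30 ± 0.12 SE, adjusted p = 0.243). Deficient library 2 was the highest for both, and the gap between the groups was narrower for Ddx58. Of the 8 tested genes with an ISRE match, 6 had both deficient values above both controls and 2 (Stat2 and Ifitm2) overlapped. Of the 14 with an entry but no match, 7 lay above and 7 overlapped, and of all genes tested 24.1% lay above. The difference between these 2 sets was not tested.

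The 18 genes under the filter had means from 0.0268 to 0.968 FPKM. Both deficient values lay above both controls for 11 of them and below for 0, against 22.2% and 10.3% of the 6255 genes under the filter with a mean above 0. Mx1, a GTPase that blocks virus replication, stood at 0.106 and 0.0994 FPKM in the controls, against 0.261 and 0.391 in the deficient libraries. Rsad2, or viperin, stood at 0.548 and 0.542 FPKM in the controls, against 0.857 and 0.864 in the deficient libraries, and Xaf1 at 0.351 and 0.404 FPKM in the controls, against 0.754 and 0.842 in the deficient libraries. Each of these had close control values and a clear gap to the deficient libraries, at levels under 1 FPKM. In the authors' deposited table their mean normalized signals were 10.3, 33.5 and 24.5. That table gave no adjusted p for Mx1 and Xaf1 and did not call Rsad2 (adjusted p = 0.742). Mx2 overlapped at 0.218 and 0.131 FPKM in the controls, against 0.279 and 0.176 in the deficient libraries. Oasl1 had no signal listed in either control (0 FPKM) and 0.0520 and 0.0552 FPKM in the deficient libraries. The chemokine gene Cxcl10, a common readout of an active response, stood at 0.691 and 1.14 FPKM in the controls, against 1.03 and 0.792 in the deficient libraries, with the groups overlapping. Mx1, Mx2, Rsad2 and Xaf1 were chosen for mention after their values were seen.

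Other genes of the pathway were read from the same fit. Of 11 interferon genes, 10 were listed at 0 in all 4 libraries, and Ifnz was listed at 0.108 in control 1 and at 0 in the others. Of 10 receptor and JAK-STAT genes, 0 passed limma (1 lower at an unadjusted p under 0.05), with a median log2 fold change of 0.04. The type I receptor chain Ifnar1 stood at 9.77 and 9.60 FPKM in the controls, against 8.74 and 9.16 in the deficient libraries (log2 fold change -0.10 ± 0.10 SE, adjusted p = 0.672), and the gamma receptor chain Ifngr1 at 20.6 and 16.5 FPKM in the controls, against 21.2 and 18.9 in the deficient libraries (log2 fold change 0.11 ± 0.13 SE, adjusted p = 0.714). Jak1, the kinase shared by these receptors, stood at 44.2 and 46.3 FPKM in the controls, against 52.4 and 51.8 in the deficient libraries (log2 fold change 0.20 ± 0.09 SE, adjusted p = 0.298). Of 13 tested sensing adaptors and kinases and 13 tested negative regulators, 0 passed in limma (1 higher and 1 lower at an unadjusted p under 0.05), with medians of 0.11 and 0.03. The authors' deposited table called none of the genes in these 3 lists.

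Interferon-induced genes outside the 44 held the 2 calls found in the pathway lists. Of 71 listed, 68 were in the table and 40 were tested. Of these 2 rose (0.837% of all genes tested), 0 fell and 38 did not pass. Both deficient values lay above both controls for 26 of the 40 and below for 0 (24.1% and 24% of all genes tested). The median log2 fold change was 0.29. For Herc6, Trim30a, Trim34a, Apol9b and Igtp the control mean was under 1 and the deficient mean over 1. They passed the level filter through the deficient group. Without the filter, 35 of 65 genes with a mean above 0 lay above and 1 below, with a median of 0.18. Of all genes with a mean above 0, 23.4% and 19.1% did so. Ifi204, a DNA-binding protein of the p200 family (ENSMUSG00000073489.6, chromosome 1, 173747293 to 173766943, minus strand), rose from 13.9 ± 0.422 to 24.5 ± 0.122 FPKM (SD, n = 2 per group). It stood at 13.7 and 14.2 FPKM in the controls, against 24.6 and 24.4 in the deficient libraries, with both groups tight and far apart (log2 fold change 0.77 ± 0.09 SE, adjusted p = 0.0353). Slfn2, a Schlafen gene active in immune cells (ENSMUSG00000072620.3, chromosome 11, 83065112 to 83070678, plus strand), rose from 4.44 ± 0.0119 to 8.50 ± 0.491 FPKM (SD, n = 2 per group). It stood at 4.43 and 4.45 FPKM in the controls, against 8.15 and 8.85 in the deficient libraries (log2 fold change 0.80 ± 0.11 SE, adjusted p = 0.0392). Both were also called in the authors' deposited table, with adjusted p of 2.5e-05 for Ifi204 and 0.0133 for Slfn2. Without deficient library 1 neither passed limma (adjusted p = 0.210 for each), nor without deficient library 2 (0.158 for Ifi204 and 0.212 for Slfn2), while their log2 fold changes in these fits lay between 0.75 and 0.86. Nor did either pass limma with no level filter (adjusted p = 0.224 for each), under quantile normalization (0.0548 for Ifi204 and 0.0554 for Slfn2) or without a variance trend (0.0653 for each). Ifi204 is one of several related genes side by side, so reads may be shared among them.

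No gene of the antigen presentation lists passed limma's adjusted test. Of 9 tested class I molecules and regulators beyond the 44, 0 passed in limma and the median was 0.26. At an unadjusted p under 0.05, 2 were higher (9.49% of all genes tested). Nlrc5 and Cd1d1 had a control mean under 1 and a deficient mean over 1, so they passed the level filter through the deficient group. Without the filter the median was 0.25 over 13 genes. Nlrc5, the transactivator of class I genes, stood at 0.741 and 0.920 FPKM in the controls, against 1.03 and 1.35 in the deficient libraries (log2 fold change 0.26 ± 0.17 SE, adjusted p = 0.496). Of 13 proteins that supply or load peptides in the secretory pathway or proteasome, 0 passed in limma (1 lower at an unadjusted p under 0.05). Their log2 fold changes were above 0 for 2 and below for 11, while 49.6% of all genes tested were above 0, and the median was -0.11. For 4 of these 13 the deficient libraries were the 2 lowest, a share near the 24% of all genes tested, and for 0 the 2 highest. Of 12 class II genes, 5 were tested and 0 passed in limma (0 at an unadjusted p under 0.05). The class II chain H2-Aa was listed at 0 in all libraries, and Cd74, the invariant chain, stood at 0.0936 to 0.256.

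**Figure D4:**
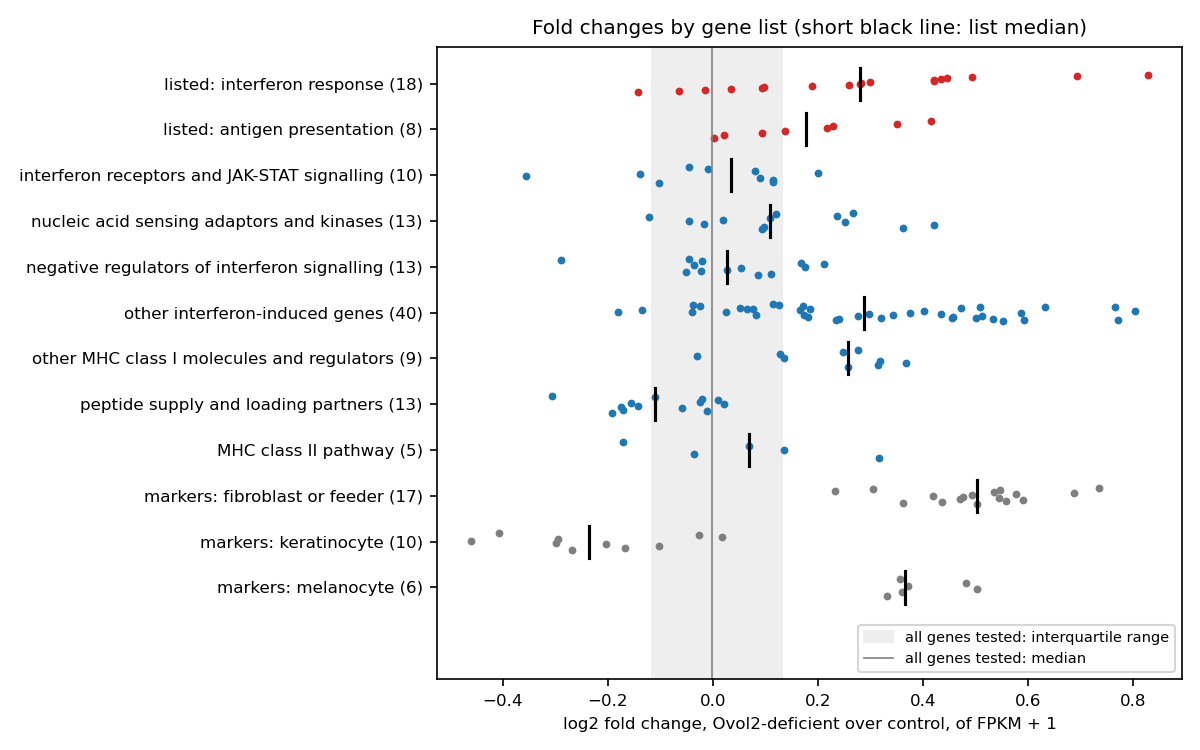
Log2 fold change of FPKM + 1, Ovol2-deficient over control, of each tested gene (points) by list, with the list median as a short black line, the number tested in brackets, and the interquartile range of all 11350 genes (-0.12 to 0.13) in grey. The 18 interferon response genes of the list (median 0.28) and the 40 other interferon-induced genes (0.29) lie mostly to the right of that range. Receptor and JAK-STAT genes (0.04) lie mostly within it. The fibroblast or feeder (0.50) and melanocyte (0.37) markers lie further right, and the keratinocyte markers have a median of -0.24.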

How the data were processed

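RNA from 2 control and 2 Ovol2-deficient keratinocyte cultures was extracted with Trizol, amplified as full-length cDNA and tagmented with a Nextera kit, per the labels' protocols. Reads were processed with TopHat and HTSeq against mm10, per the submitters' processing notes. The authors deposited FPKM values per library, and the sources used here do not say how these were made from the reads. The numbers of the Ovol2-deficient libraries are those of that table's columns, which the labels do not tie to single samples. In a second table the authors deposited, per gene, a mean normalized signal over all libraries, a log2 fold change and its error, the score of their test, and raw and adjusted p-values. Counts per library were not used here, so depth per library is unknown, and no interval for counting error is given.

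Of 24487 gene lines, 27 with symbols turned into dates were left out, and those sharing a symbol were summed to 23970. The 11350 genes with a mean of at least 1 FPKM were fitted on the log2(FPKM + 1) scale by limma (version 3.58.1, under R 4.3.3; variance trend, group as the only term), with Benjamini-Hochberg adjustment over all of them and a threshold of 0.05. A fold change on this scale understates the change of low genes. The fit was tested on simulated data. Full statistics are given for listed genes that passed the test or whose groups do not overlap, for preset listed and pathway genes whatever they did (1 pathway gene is not reported here), for called pathway genes, and, in the closing section, for genes chosen after their values were seen. The members and all lists were chosen with earlier results of these data known. Alternatives were another pseudocount, filter, scaling or variance model, a replicate block, leaving out each library, and the authors' comparison. Gene positions are from GENCODE M21 and promoters from RefSeq, both on GRCm38, the assembly that mm10 names. Annotated exons of Cxcl10, Gbp2, Ifitm2, Jak1, Nlrc5, Oasl1, Parp14 and Psmb8 also overlap those of other genes.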

Additional observations from a re-analysis of the deposited data

How the results depend on the processing

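Across the alternatives, 348 of 379 values of 30 genes followed by name kept their direction and their side of limma's threshold, 12 lost a call, 9 gained one and 10 changed sign, in 7 genes. The genes of the list called numbered 0 as reported, 2 with a minimum mean of 5 FPKM (267 of all genes), 4 with a replicate block, 1 in the authors' deposited table, and 0 to 2 on leaving out a library. Their median log2 fold change was 0.16 under quantile normalization and 0.21 to 0.37 on leaving out a library. The number not overlapping was 27 of 44 without a level filter, 10 of 14 at a mean of at least 5, and 18 to 24 of 26 on leaving out a library, when 72.1% to 76.5% of all genes lay apart in either direction (42.5% with no filter, 47.0% at a mean of at least 5, 48.1% as reported). Of the 26, 1 to 4 then lay below the controls. Calls in the other pathway lists numbered 2 as reported, 0 with no filter, under quantile normalization and without a variance trend, 1 under upper-quartile scaling and under rescaling of every library to the same sum (TPM), both times Ifi204, 5 with the replicate block and 0 to 4 on leaving out a library. The cause was not tested. Where leaving out a library left 1 in a group, limma assumed that it varies as the other group does.

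Log2 fold changes changed sign for Irf7 at 0.00078 after the TPM rescaling. On leaving out a library they ranged from -0.39 to 0.10 for Irf1, -0.19 to 0.16 for Irf7, -0.028 to 0.41 for Irf9, -0.21 to 0.40 for Stat2, -0.30 to 0.17 for Ifitm3, -0.084 to 0.27 for H2-K1 and -0.036 to 0.27 for Ifngr1. The replicate block called B2m, Isg15, Bst2 and Ifi27 of the list, and 518 of all genes against 153 without it. Libraries with the same number deviated from their group means with a correlation of 0.22 across 11350 genes, and with 2 pairs the numbers cannot be shown to pair the libraries. Depth per library is unknown, so how far low genes are limited by counting was not tested.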

Other observations

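Genes that work with Isg15 were chosen for mention after their values were seen. Ube2l6, the enzyme that carries Isg15 to its targets, stood at 5.57 and 5.84 FPKM in the controls, against 7.88 and 9.13 in the deficient libraries (log2 fold change 0.50 ± 0.12 SE, adjusted p = 0.0859 in limma). Herc6, a ligase for Isg15 in mice, stood at 0.782 and 0.823 FPKM in the controls, against 1.38 and 1.57 in the deficient libraries (log2 fold change 0.46 ± 0.16 SE, adjusted p = 0.193). Uba7, which activates Isg15, was under the level filter at 0.262 and 0.186 FPKM in the controls, against 0.261 and 0.340 in the deficient libraries. For Ube2l6 and Herc6 both deficient values lay above both controls, as for Isg15 and Usp18, while Uba7 overlapped. Of all genes tested, 24.1% lay above. Herc6 and Usp18 had a control mean under 1 and passed the level filter through the deficient group.

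Of the chaperones of the endoplasmic reticulum, 3 were lower in both deficient libraries, as were 24% of all genes tested. All named here were chosen in the same way. They are among the 13 genes of peptide supply and loading, of which 4 lay below the controls, a share near that of all genes. Hsp90b1 stood at 244.3 and 200.5 FPKM in the controls, against 178.2 and 179.3 in the deficient libraries (log2 fold change -0.31 ± 0.12 SE, adjusted p = 0.239 in limma), and Calr, the calreticulin of the class I loading complex, at 392.2 and 341.5 FPKM in the controls, against 321.5 and 318.7 in the deficient libraries (log2 fold change -0.19 ± 0.11 SE, adjusted p = 0.417). Pdia3, its partner in that complex, stood at 259.0 and 238.3 FPKM in the controls, against 223.1 and 218.0 in the deficient libraries (log2 fold change -0.17 ± 0.10 SE, adjusted p = 0.420). The deficient libraries were the 2 lowest for these 3 genes, and none passed the adjusted test. Canx stood at 156.5 and 138.7 FPKM in the controls, against 146.8 and 145.5 in the deficient libraries and Hspa5 at 263.6 and 211.4 FPKM in the controls, against 219.7 and 217.5 in the deficient libraries, and both overlapped.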
